A study of Mus musculus with 22 samples.

Results

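The interleukins and the chains of their receptors were examined in the distal colon of C57BL/6, Winnie and Winnie-Prolapse mice. The genes were the rows of the count table whose symbol starts with Il and a digit and whose biotype cell reads protein_coding, leaving out Il4i1, which encodes an enzyme. This gave 75 genes of the 46078 in the table. A further 6 genes with interleukin symbols, Il1b, Il1rap, Il9r, Il10ra, Il16 and Il34, were left out by their biotype cell, which names a class of transcript such as retained intron. The GENCODE M21 annotation calls these 6 protein coding, and their values are given near the end.

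Interleukins are secreted proteins through which immune, epithelial and stromal cells signal to each other, and most act through receptors built of a ligand-binding chain and a shared chain. Several families also hold natural inhibitors: a receptor antagonist that binds without signalling, a decoy receptor, or a soluble protein that captures the ligand. In the colon, interleukins of the IL-10, IL-17 and IL-22 groups are known for maintaining the epithelial barrier, and those of the IL-1, IL-6 and IL-12 families for driving inflammation.

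Winnie mice carry a missense mutation of Muc2, the gene of the main secreted mucin of goblet cells, and develop colitis spontaneously, while the C57BL/6 controls without the mutation came from the same breeding colony. Whole segments of distal colon gave 1 poly(A) RNA library per mouse in 22 mice. The groups were 8 C57BL/6 mice (4 males, 4 females) and 7 Winnie mice (3 males, 4 females), both aged 14 weeks, and 7 Winnie mice labelled as having a prolapse (4 males, 3 females), aged 18 weeks and called Winnie-Prolapse here. Since the older age goes with prolapse, age and prolapse cannot be told apart. The labels name no batch, although the title of Winnie-Prolapse replicate 5 reads as a date, and the other titles hold codes whose meaning is not given.

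Libraries held 24.8 to 36.3 M counts (M, mega), and levels are given as CPM, the count of a gene divided by the library total in M, as the lowest, median and highest library of a group. A limit of 3 counts came to between 0.0825 and 0.121 CPM and covers counting error only. The markers of the labelled tissue were present: all 7 colonocyte genes and all 5 goblet cell genes examined were above 3 counts in at least 1 library of every group. Of the Winnie-Prolapse libraries, replicate 6 held 18.0% of its counts in 6 mammary gland genes, against 0.000388% in the median library of the group. Those counts are part of the library total, so they lower the CPM of all other genes in that library. Each count of called members and each test of a named member was also computed without each library in turn.

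Of the 75 members, 3 had no count in any library: Il9, Il31 and Il1rapl2. A further 7 members never exceeded 3 counts in a library, and these included the genes of the type 2 cytokines IL-4, IL-5 and IL-13 as well as Il2, Il3, Il20 and Il11ra2. Their levels were not detectable above that limit at this depth. With both sexes combined, the low-count filter kept 27 members out of all 3 comparisons: these 10 and another 17. The 17 were Il1f5, Il1f6, Il1f8, Il1f10, Il1rapl1, Il31ra, Il23r, Il27, Il17b, Il17c, Il17f, Il25, Il19, Il20ra, Il21, Il22 and Il24. The number of members with at most 3 counts in every library of the group came to 21 for C57BL/6, 17 for Winnie and 12 for Winnie-Prolapse.

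Per length of exon, the order of the members differed between groups. On the RPKM scale, which divides CPM by exon length in kilobases, the most abundant member in C57BL/6 was Il18, a cytokine stored in epithelial cells, with a median of 133. It was followed by Il17rc, a chain of the IL-17 receptor, at 45.3, by Il13ra1, a chain of the IL-13 receptor, at 36.9 and by Il1rn, the IL-1 receptor antagonist, at 25.1 RPKM. In Winnie-Prolapse the leading medians were 55.0 for Il13ra1, 47.5 for Il1rn, 42.3 for Il18 and 34.1 RPKM for Il17rc. The lowest C57BL/6 library for Il18, at 61.0 RPKM, lay above the highest for Il17rc, at 54.0, whereas the ranges of Il17rc and Il13ra1 overlapped. With the longest transcript as the length, Il1rn came second in C57BL/6 and first in Winnie-Prolapse.

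In Winnie-Prolapse against C57BL/6, 16 members were upregulated and 3 were downregulated at an adjusted p under 0.001 and a change of at least 1.5-fold. This was 36.4% and 6.82% of the 44 members tested, beside 9.84% and 8.47% of the 17397 genes tested. The edgeR quasi-likelihood test was used with Benjamini-Hochberg adjustment over all genes. The 16 were Il1a, Il1r2, Il1rl1, Il18r1, Il18rap, Il18bp, Il11, Il12rb1, Il12rb2, Il10, Il2ra, Il2rb, Il4ra, Il3ra, Il5ra and Il13ra1, and the 3 were Il15, Il18 and Il11ra1. At an adjusted p under 0.05 the counts were 22 and 6, beside 16.7% and 17.7% of all genes. Every Winnie-Prolapse library lay above every C57BL/6 library for 16 of the members tested and below for 3, beside 6.5% and 9.45% of all genes. The median log2 fold change of the tested members was 0.71, and that of all genes tested was -0.01. Members low in C57BL/6 passed the low-count filter only through their Winnie-Prolapse libraries, so these shares describe the members tested and not the list. In tissue as a whole, more cells of a type and more RNA per cell cannot be told apart.

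In Winnie against C57BL/6, 0 members were upregulated and 0 downregulated at the limit of 0.001 with edgeR, beside 0.0868% and 0.00578% of the 17289 genes tested. At an unadjusted p under 0.05 there were 22 of the 37 members tested and 6901 of the 17289 genes. DESeq2 called 8 of 56 members higher and 0 lower at 0.001, beside 3.46% and 2.04% of the 21898 genes to which it gave an adjusted p. At the limit of 0.05, 9 members were higher and 3 lower, beside 7.42% and 8.53% of all genes. The 9 were Il18bp, Il1r2, Il1rl1, Il18rap, Il12rb1, Il2ra, Il2rb, Il4ra and Il3ra, and the 3 were Il15, Il33 and Il17rd. The ranges of the groups overlapped for every tested member but 1, Il17rd, which was lower in every Winnie library (0 members above and 1 below, beside 0.463% and 1.17% of all genes). The median log2 fold change was 0.28 for the members and -0.01 for all genes.

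In Winnie-Prolapse against Winnie, 0 members passed the limit of 0.001 in either direction with edgeR, beside 0% and 0% of the 17041 genes tested. At an unadjusted p under 0.05 there were 25 of 47 members and 4743 of the 17041 genes. DESeq2 called 11 of 61 members higher and 0 lower at 0.001, beside 2.19% and 0.735% of its 22036 genes. At the limit of 0.05, 11 were higher and 1 was lower, beside 4.27% and 2.72% of all genes. The count of 11 ranged from 5 to 18 when 1 library was left out, with 18 without Winnie replicate 2, and 5 without any one of Winnie replicates 3 to 7 or without Winnie-Prolapse replicate 4. It was 6 without Winnie-Prolapse replicate 5 and 7 without Winnie-Prolapse replicate 6. The calls of Il1a, Il33, Il1rn, Il4ra and Il5ra were kept in all 14 such fits, while those of Il1r2, Il1rl1, Il18rap, Il2ra, Il1f9, Il6 and, downward, Il15 were kept in 4 to 8 of them. For Il1r2, Il1rl1, Il18rap and Il2ra the log2 differences were 2.98 ± 0.73, 2.65 ± 0.70, 2.28 ± 0.59 and 1.06 ± 0.29, and Il15 was at -1.02 ± 0.28, with edgeR adjusted p from 0.0269 to 0.0393. The 2 members Il1a and Il5ra were above every Winnie library in every Winnie-Prolapse library and 0 were below, beside 0.411% and 0.552% of all genes. The median log2 fold change was 0.51 for the members and 0.01 for all genes. Here too some members, such as Il6 and Il1f9, passed the filter mainly through their Winnie-Prolapse libraries, so the shares and the median describe the members tested. The 2 comparisons with Winnie-Prolapse share those libraries, and the 2 comparisons with C57BL/6 share the control libraries.

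**Figure D1:**
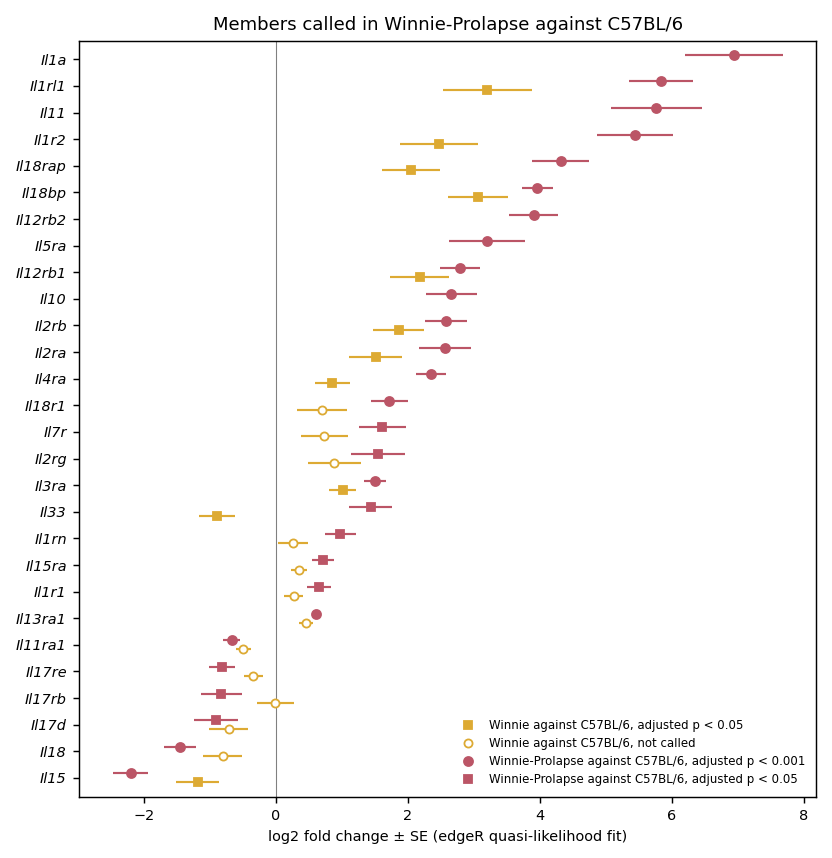
Log2 fold changes with standard errors from the edgeR fit for the 28 members past the limit of 0.05 in Winnie-Prolapse against C57BL/6, with the same members in Winnie against C57BL/6 where tested. Il1a stands highest at 6.94 and Il15 lowest at -2.21, and Il33 lies on opposite sides of 0 in the 2 comparisons.

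The IL-1 family ligands moved in opposite directions. Il1a encodes IL-1 alpha, an alarm signal released by damaged cells (chr2:129299610-129309972, minus strand). It was at 0, 0.221 and 0.579 CPM in C57BL/6, 0.131, 0.54 and 2.37 CPM in Winnie, and 4.93, 13 and 62.2 CPM in Winnie-Prolapse. All 7 Winnie-Prolapse libraries stood above every other library. Il1a rose by 6.94 ± 0.74 on the log2 scale (SE) against C57BL/6 in the edgeR fit with a Benjamini-Hochberg adjusted p of 3.6e-06, the largest rise among the tested members, and by 5.10 ± 0.78 against Winnie with an adjusted p of 0.00787.

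Il18 (chr9:50554827-50581840) went the other way, at 62.8, 137 and 184 CPM in C57BL/6, 30.1, 70.8 and 124 CPM in Winnie and 26.2, 43.6 and 65.4 CPM in Winnie-Prolapse. All but 1 of the Winnie-Prolapse libraries lay below every C57BL/6 library. Il18 fell by 1.46 on the log2 scale (SE 0.24, edgeR, adjusted p 0.00014) in Winnie-Prolapse against C57BL/6. In Winnie against C57BL/6 the log2 difference was -0.81 ± 0.30, with an adjusted p of 0.0543 in the edgeR fit, and from 0.0192 to 0.0419 without C57BL/6 replicate 7, Winnie replicate 4 or Winnie replicate 5.

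Il33 encodes IL-33, a nuclear cytokine of epithelial and stromal cells that is released on damage, and it did not keep 1 direction. It was at 3.59, 6.14 and 8.32 CPM in C57BL/6, 1.49, 2.53 and 5.96 CPM in Winnie and 5.45, 12.1 and 26.5 CPM in Winnie-Prolapse. The Winnie range lay low and the Winnie-Prolapse range high, with overlap on both sides. The log2 difference was -0.90 ± 0.27 in Winnie against C57BL/6 (edgeR adjusted p 0.0245), and, for Winnie-Prolapse, 1.43 ± 0.33 against C57BL/6 (adjusted p 0.00185) and 2.34 ± 0.42 against Winnie (adjusted p 0.0135). The first of these was lost without Winnie replicate 1 (adjusted p 0.0537) or without Winnie replicate 6.

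**Figure D2:**
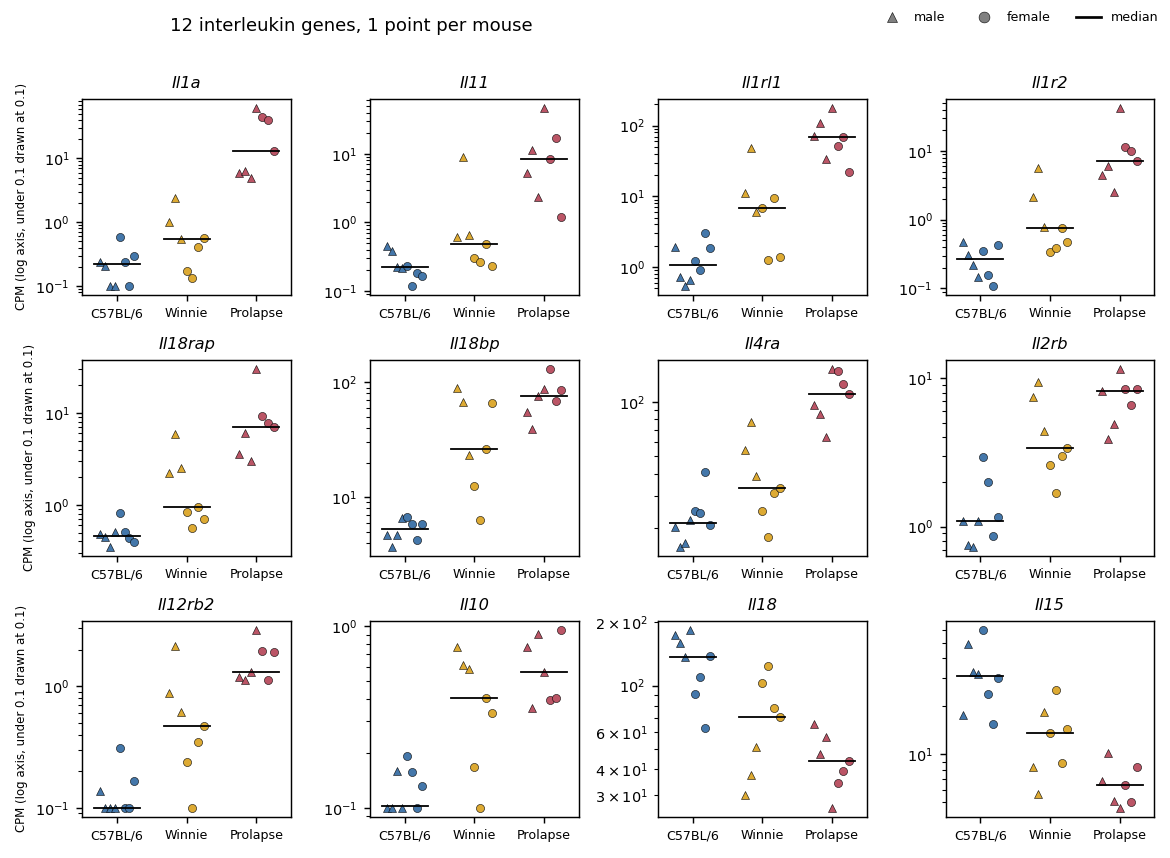
CPM of 12 members in each mouse on log axes, with triangles for males, circles for females and lines at the group medians. The Winnie-Prolapse libraries stand above every C57BL/6 library for all 10 genes of the first 10 panels, while Il18 and Il15 fall from C57BL/6 to Winnie-Prolapse.

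Receptors of the IL-1 family lie together on chromosome 1, where Il1r2, Il1r1, Il1rl2, Il1rl1, Il18r1 and Il18rap follow each other between positions 40074079 and 40551705. Of the 5 signalling receptor genes in this stretch, 3 were upregulated in Winnie-Prolapse against C57BL/6 at 0.001, beside 9.84% of all genes. Il1r1, the IL-1 receptor itself, was higher at 0.05 by 0.65 ± 0.18 on the log2 scale (edgeR adjusted p 0.00786). Its change was under 1.5-fold without C57BL/6 replicate 2 or Winnie-Prolapse replicate 4. Il1rl2, the receptor chain for IL-36, was not called, at a log2 difference of -0.17 ± 0.41.

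Il1rl1 encodes ST2, the receptor of IL-33. It was at 0.54, 1.07 and 3.01 CPM in C57BL/6, 1.25, 6.86 and 49.0 CPM in Winnie and 22.3, 69.3 and 178 CPM in Winnie-Prolapse. The Winnie range reached from within the C57BL/6 libraries into the Winnie-Prolapse libraries. The log2 fold change was 5.84 ± 0.48 in Winnie-Prolapse against C57BL/6 (edgeR adjusted p 3.37e-07) and 3.2 ± 0.68 in Winnie against C57BL/6 (adjusted p 0.00575). Per exon length, the ratio of Il1rl1 to Il33 had medians of 0.0707, 1.85 and 2.63 in C57BL/6, Winnie and Winnie-Prolapse.

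Il18rap, the signalling chain of the IL-18 receptor, was at 0.349, 0.461 and 0.81 CPM in C57BL/6, 0.558, 0.949 and 5.9 CPM in Winnie and 2.97, 7.03 and 30.1 CPM in Winnie-Prolapse. Il18r1, the ligand-binding chain, was at 0.349, 1.04 and 1.59, at 0.675, 1.21 and 3.91, and at 2.19, 3.1 and 4.52 CPM in the same order. For both chains, no Winnie-Prolapse library overlapped C57BL/6. The log2 fold change in Winnie-Prolapse against C57BL/6 was 4.31 ± 0.44 for Il18rap (edgeR adjusted p 2.24e-06) and 1.71 ± 0.28 for Il18r1 (adjusted p 0.000138).

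Among the inhibitors of the family, Il18bp encodes the protein that captures free IL-18. It was at 3.69, 5.27 and 6.79 CPM in C57BL/6, 6.3, 26.4 and 88.8 CPM in Winnie and 39.0, 75.7 and 131 CPM in Winnie-Prolapse. Of the 7 Winnie libraries, 6 stood above every C57BL/6 library, and the Winnie range reached well into the Winnie-Prolapse range. The log2 fold change was 3.96 ± 0.23 in Winnie-Prolapse (edgeR adjusted p 9.59e-09) and 3.06 ± 0.45 in Winnie (adjusted p 0.00132), each against C57BL/6, and both adjusted p-values were the smallest of the members in their comparison. Winnie-Prolapse and Winnie differed by 0.92 ± 0.48 with an adjusted p of 0.233. Exons of Il18bp overlap those of Numa1 on the other strand, and Numa1 differed by -0.17 ± 0.12 in Winnie-Prolapse against C57BL/6 (edgeR adjusted p 0.24). The part of Numa1 reads in the Il18bp counts was not tested.

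Il1r2, the decoy receptor that binds IL-1 without signalling, was at 0.109, 0.265 and 0.478 CPM in C57BL/6, 0.338, 0.748 and 5.64 CPM in Winnie and 2.51, 7.14 and 42.3 CPM in Winnie-Prolapse. The 2 outer groups did not overlap. The log2 fold change between them was 5.45 ± 0.58 (edgeR adjusted p 3.28e-06), and Winnie differed from C57BL/6 by 2.47 ± 0.60 (adjusted p 0.0101). Il1rn, the receptor antagonist, started from a high level, at 41.2, 139 and 211 CPM in C57BL/6, 129, 142 and 199 CPM in Winnie and 174, 263 and 305 CPM in Winnie-Prolapse. It was higher in Winnie-Prolapse by 0.98 ± 0.23 against C57BL/6 (edgeR adjusted p 0.00261) and by 0.72 ± 0.11 against Winnie (adjusted p 0.00804), both at the limit of 0.05.

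These levels put the inhibitors in another proportion to their ligands. Per exon length, the ratio of Il18bp to Il18 ran from 0.00792 to 0.0254 in C57BL/6 with a median of 0.0134. It spanned 0.0173 to 1.01 in Winnie with a median of 0.154, and 0.281 to 1.30 in Winnie-Prolapse with a median of 0.6. The ratio of Il1rn to the sum of Il1a and Il1b moved the other way, with medians of 48.9, 9.63 and 1.24 in the same order of groups. For both ratios C57BL/6 and Winnie-Prolapse did not overlap. The ratios compare transcripts and were not tested.

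In the IL-6 family, Il11, a cytokine of stromal cells known from fibrosis and epithelial repair, was at 0.118, 0.22 and 0.444 CPM in C57BL/6, 0.234, 0.489 and 8.94 CPM in Winnie and 1.21, 8.47 and 46.8 CPM in Winnie-Prolapse. Winnie replicate 2 stood at 8.94 CPM and the next Winnie library at 0.655. Il11 rose by 5.76 ± 0.69 on the log2 scale in Winnie-Prolapse against C57BL/6 (edgeR adjusted p 9.51e-06). Its receptor chain Il11ra1 was at 22.8, 26.0 and 33.4 CPM in C57BL/6, 13.2, 17.8 and 24.2 CPM in Winnie and 12.2, 15.5 and 20.2 CPM in Winnie-Prolapse, with the outer groups apart. Il11ra1 fell by 0.67 on the log2 scale (SE 0.13, edgeR, adjusted p 0.0005), a call lost at 0.001 without C57BL/6 replicate 3 or 4 or without Winnie-Prolapse replicate 1, 5 or 6 (adjusted p up to 0.00153). Il11ra1 has a near copy, Il11ra2, so reads of the pair may have been divided in the counting, and its exons also overlap Ccl27a on the other strand.

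Il6 itself was close to the counting limit in most mice, at 0, 0.0159 and 0.0772 CPM in C57BL/6, 0, 0.0335 and 1.41 CPM in Winnie and 0.121, 1.58 and 19.9 CPM in Winnie-Prolapse. All 7 Winnie-Prolapse libraries stood above every C57BL/6 library. With both sexes combined, the low-count filter removed Il6 from the comparison with C57BL/6. Against Winnie its log2 fold change was 4.18 ± 1.15 (edgeR adjusted p 0.0384, and 0.091 without Winnie-Prolapse replicate 4). Its receptor genes were not called: Il6ra differed by 0.23 ± 0.22 and Il6st, the shared chain gp130, by 0.02 ± 0.14 in Winnie-Prolapse against C57BL/6.

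The stretches before the start sites of the 3 ligand genes with the largest called rise, Il1a, Il11 and Il10, were looked up in RefSeq promoters of GRCm38.p6, which held Il1a and 2 start sites of Il11. They are shown because these ligands led the rise in Winnie-Prolapse. Each line gives the 250 bases before the start, 5′ to 3′ on the gene's strand, with capitals for a match to the AP-1 letters TGANTCA. The windows are chr2:129309973-129310222 for Il1a, chr7:4782858-4783107 for the first and chr7:4778142-4778391 for the second start of Il11, all on the minus strand.
Il1a: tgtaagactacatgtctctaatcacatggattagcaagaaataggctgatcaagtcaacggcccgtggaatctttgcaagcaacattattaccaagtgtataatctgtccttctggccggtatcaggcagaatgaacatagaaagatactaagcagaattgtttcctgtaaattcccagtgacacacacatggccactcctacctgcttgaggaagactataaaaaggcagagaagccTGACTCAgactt
Il11, first start: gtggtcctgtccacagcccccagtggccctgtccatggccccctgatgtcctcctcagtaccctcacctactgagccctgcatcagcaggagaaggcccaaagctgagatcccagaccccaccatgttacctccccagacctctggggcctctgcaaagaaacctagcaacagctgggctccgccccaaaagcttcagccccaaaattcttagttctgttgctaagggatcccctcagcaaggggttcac
Il11, second start: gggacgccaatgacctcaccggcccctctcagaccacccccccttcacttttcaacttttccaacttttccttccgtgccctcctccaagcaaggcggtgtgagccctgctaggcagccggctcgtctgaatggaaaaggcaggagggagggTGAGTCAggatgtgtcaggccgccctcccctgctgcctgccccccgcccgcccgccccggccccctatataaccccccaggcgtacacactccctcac

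The match in Il1a lay 12 to 6 bases before the start and that of the second Il11 start 98 to 92 bases before it. Letters of 3 other factors, TTCNNNGAA for STAT, TTGCNNAA for C/EBP and GGGNNTTCC for a part of the NF-kB consensus, were searched on both strands, as AP-1 was, and had no match in these windows. Over 32851 promoter windows of the same length, AP-1 letters were found in 6.75%, STAT in 7.02%, C/EBP in 9.56% and the NF-kB part in 4.98%. A match describes letters only.

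Of the 5 tested members of the IL-12 family, 2 were upregulated in Winnie-Prolapse against C57BL/6 at 0.001, beside 9.84% of all genes, and both encode receptor chains. Il12rb2, the chain that makes T cells responsive to IL-12, was at 0.0317, 0.0755 and 0.309 CPM in C57BL/6, 0.0984, 0.469 and 2.15 CPM in Winnie and 1.13, 1.3 and 2.91 CPM in Winnie-Prolapse. Il12rb1, the chain shared with the IL-23 receptor, was at 0.0683, 0.22 and 0.424, at 0.203, 0.771 and 1.95, and at 0.938, 1.63 and 2.12 CPM. Both were above every C57BL/6 library in each Winnie-Prolapse mouse. In the edgeR fit their log2 fold changes against C57BL/6 were 3.91 ± 0.37 (adjusted p 1.31e-06) and 2.79 ± 0.30 (adjusted p 4.29e-06). Exons of Il12rb2 overlap those of Serbp1 on the other strand.

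The ligand subunits of this family were low. Il12b, the p40 subunit, was at 0, 0.0352 and 0.275 CPM in C57BL/6, 0.0863, 0.328 and 0.825 CPM in Winnie and 0.242, 0.545 and 0.808 CPM in Winnie-Prolapse. Il23a, the p19 subunit of IL-23, was at 0.29, 0.355 and 0.65, at 0.0771, 0.268 and 0.591, and at 0.0888, 0.259 and 1.93 CPM, with the log2 difference of 0.62 ± 0.56 in Winnie-Prolapse against C57BL/6 not called. That difference took the other sign without Winnie-Prolapse replicate 6, at -0.19. Il27 ranged from 0 to 0.108 CPM in C57BL/6 and from 0.226 to 1.02 CPM in Winnie-Prolapse. These 2 groups of Il27 did not overlap, while Winnie, from 0.0656 to 0.288 CPM, overlapped both. Il27 was too low for the test with both sexes combined, and its exons overlap Apobr. In females alone Il27 passed the filter through its Winnie-Prolapse libraries. The log2 fold change there was 6.06 against C57BL/6 (edgeR adjusted p 0.0012). Il12a, the p35 subunit, and the receptor chain Il27ra were tested and not called with both sexes combined. Without C57BL/6 replicate 5 both were higher at 0.05 (edgeR adjusted p 0.0467 and 0.00347). Il27ra was also higher at 0.05 in males alone (edgeR adjusted p 0.0306).

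Of the 6 tested members of the IL-17 family, 0 were higher and 3 lower in Winnie-Prolapse against C57BL/6 at 0.05, beside 16.7% and 17.7% of all genes. Il17a, the main cytokine of Th17 cells, was at 0, 0 and 0.0393 CPM in C57BL/6, 0, 0.115 and 0.577 CPM in Winnie and 0.331, 0.444 and 0.846 CPM in Winnie-Prolapse. Il17f was at 0.0723, 0.121 and 0.205, at 0.0338, 0.131 and 0.417, and at 0.165, 0.266 and 0.363 CPM. For Il17a the outer groups were apart, and for Il17f they overlapped. With both sexes combined, neither passed the low-count filter against C57BL/6. Il17a passed it in each sex alone through its Winnie-Prolapse libraries. The log2 fold change against C57BL/6 was then 6.56 in males and 5.17 in females (edgeR adjusted p 0.00167 and 0.00198). With both sexes combined, Il17a differed from Winnie by 1.78 ± 0.62 (edgeR adjusted p 0.0796, and 0.0124 without Winnie replicate 2).

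Among the IL-17 receptor chains, Il17ra and Il17rc, which form the receptor for IL-17A, were not called, with log2 differences of 0.21 ± 0.13 and -0.19 ± 0.16 in Winnie-Prolapse against C57BL/6. Il17re, the chain for IL-17C, was lower in every Winnie-Prolapse library than in any C57BL/6 library, at 33.3, 39.6 and 51.3 CPM in C57BL/6, 21.0, 29.6 and 44.1 CPM in Winnie and 10.2, 24.8 and 31.7 CPM in Winnie-Prolapse. It fell by 0.82 on the log2 scale (SE 0.19, edgeR, adjusted p 0.00249). At the limit of 0.05, Il17rb, the chain for IL-25, fell by 0.83 (SE 0.32) and Il17d by 0.91 (SE 0.33). Both of these calls depended on single mice, with adjusted p up to 0.0816 for Il17rb without Winnie-Prolapse replicate 5 and up to 0.065 for Il17d without the same library. The call of Il17rb was also lost without C57BL/6 replicates 2, 5, 7 or 8 or Winnie-Prolapse replicates 2, 4 or 6, and that of Il17d without C57BL/6 replicate 7 or Winnie-Prolapse replicate 6. Il17rd was at 7.06, 7.49 and 10.1 CPM in C57BL/6, 2.44, 5.94 and 6.79 CPM in Winnie and 3.49, 5.33 and 8.92 CPM in Winnie-Prolapse. It was lower in Winnie by 0.60 (log2 -0.60 ± 0.19, edgeR adjusted p 0.0286), and this call was lost without C57BL/6 replicates 1, 3 or 4 or Winnie replicates 1 or 7. Il25, a tuft cell cytokine, stayed at or under 0.181 CPM in all libraries.

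In the IL-10 family, Il10, which restrains inflammation, was at 0.0342, 0.102 and 0.193 CPM in C57BL/6, 0.0656, 0.403 and 0.77 CPM in Winnie and 0.356, 0.562 and 0.956 CPM in Winnie-Prolapse. The outer groups did not overlap. Its log2 fold change in Winnie-Prolapse against C57BL/6 was 2.66 ± 0.39 (edgeR adjusted p 5.32e-05), and against Winnie 0.59 ± 0.42 (adjusted p 0.381). Il22, the lymphoid cytokine that acts on epithelium, was at 0, 0 and 0.137 CPM in C57BL/6, 0, 0.0335 and 0.16 CPM in Winnie and 0.0323, 0.0661 and 0.685 CPM in Winnie-Prolapse, with overlap between all groups. The receptor chains for IL-22 were abundant and not called, at log2 differences of 0.28 ± 0.18 for Il22ra1 and -0.06 ± 0.12 for Il10rb. Il22ra2, the soluble binding protein that neutralizes IL-22, was at 1.56, 3.45 and 12.6, at 1.08, 3.18 and 4.66, and at 0.908, 1.81 and 5.24 CPM, with a log2 difference of -0.99 ± 0.50 that was not called, except without Winnie-Prolapse replicate 1 or 7 (edgeR adjusted p 0.0492 and 0.0441). Il24 had no count in C57BL/6 or Winnie and was found in 6 of 7 Winnie-Prolapse libraries with a mean at least 4.28-fold higher than a floor of 3 counts per C57BL/6 library, or 1.94-fold without Winnie-Prolapse replicate 4.

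Of the 9 tested members of the common gamma chain family, 6 were higher and 1 lower in Winnie-Prolapse against C57BL/6 at 0.05, beside the same 16.7% and 17.7%. Il15, which sustains intraepithelial lymphocytes and natural killer cells (chr8:82331632-82403222, minus strand), was at 15.5, 31 and 60.1 CPM in C57BL/6, 5.67, 13.6 and 25.3 CPM in Winnie and 4.63, 6.44 and 10.2 CPM in Winnie-Prolapse. All 7 Winnie-Prolapse libraries lay below the lowest C57BL/6 library. Il15 fell by 2.21 on the log2 scale (SE 0.27, edgeR, adjusted p 1.08e-05) in Winnie-Prolapse and by 1.19 (SE 0.32, adjusted p 0.0163) in Winnie, each against C57BL/6. Il15ra, which presents IL-15 to other cells, was higher in Winnie-Prolapse by 0.71 ± 0.16 at the limit of 0.05 (edgeR adjusted p 0.00188), and without Winnie-Prolapse replicate 6 its change was under 1.5-fold.

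Il4ra, the chain shared by the receptors of IL-4 and IL-13, was at 15.7, 21.3 and 41.0 CPM in C57BL/6, 17.8, 33.3 and 77.3 CPM in Winnie and 64.0, 110 and 153 CPM in Winnie-Prolapse. Its lowest Winnie-Prolapse library stood above the highest C57BL/6 library. The log2 fold change was 2.35 ± 0.22 against C57BL/6 (edgeR adjusted p 1.21e-06) and 1.51 ± 0.28 against Winnie (adjusted p 0.014). In Winnie against C57BL/6 it was 0.85 ± 0.27 (adjusted p 0.0301), a call lost without Winnie replicate 1 or 2 or C57BL/6 replicate 2, 3, 4 or 8 (adjusted p up to 0.0847).

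The IL-2 receptor chains of activated and regulatory T cells rose together with Il4ra. Il2rb was at 0.73, 1.09 and 2.93 CPM in C57BL/6, 1.67, 3.41 and 9.42 CPM in Winnie and 3.91, 8.23 and 11.6 CPM in Winnie-Prolapse. Il2ra, also called CD25, was at 0.137, 0.505 and 1.66, at 0.979, 1.44 and 2.76, and at 1.85, 3.08 and 6.12 CPM. Both were apart between the outer groups, with log2 fold changes of 2.58 ± 0.32 (edgeR adjusted p 1.2e-05) and 2.56 ± 0.40 (adjusted p 8.43e-05). The common chain Il2rg was higher by 1.55 ± 0.41 (adjusted p 0.00486), Il7r by 1.61 ± 0.36 (adjusted p 0.00166), and Il7 and Il21r were not called, although Il21r was without C57BL/6 replicate 5 (adjusted p 0.0187).

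Of the chains that pair with the common beta chain, Il5ra, the IL-5 receptor of eosinophils and some B cells, was at 0, 0.0694 and 0.424 CPM in C57BL/6, 0.0984, 0.154 and 0.518 CPM in Winnie and 0.595, 0.806 and 2.34 CPM in Winnie-Prolapse. The Winnie-Prolapse libraries stood above all others. Il5ra rose by 3.2 ± 0.58 on the log2 scale against C57BL/6 (edgeR adjusted p 0.000319) and by 2.08 ± 0.44 against Winnie (adjusted p 0.0184). Il3ra rose by 1.5 ± 0.17 (adjusted p 5.92e-06). Il13ra1, at 117, 137 and 147 CPM in C57BL/6 and 152, 204 and 226 CPM in Winnie-Prolapse, rose by 0.61 ± 0.07 (edgeR adjusted p 1.09e-05), just past 1.5-fold, and its change was under 1.5-fold without C57BL/6 replicate 2 or Winnie-Prolapse replicate 1 or 7. The decoy Il13ra2 was at 0.0362, 1.04 and 2.28, at 0.288, 0.837 and 1.06, and at 0.635, 1.24 and 2.66 CPM, with no call in any comparison.

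**Figure D3:**
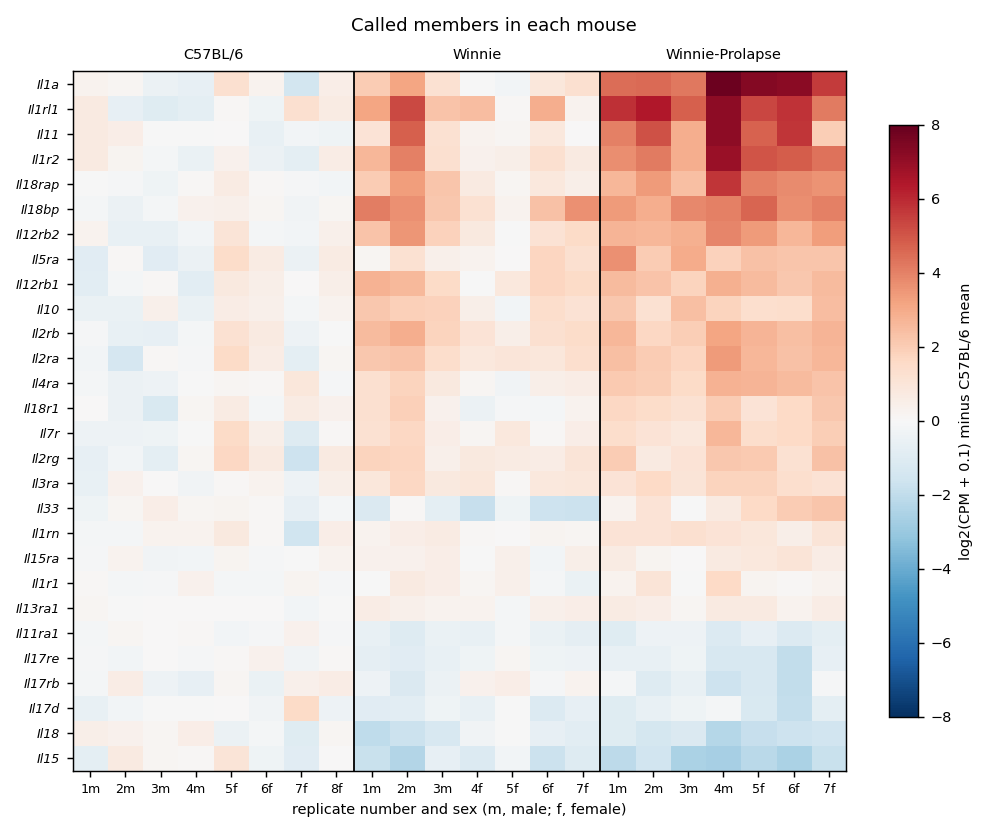
Difference of log2(CPM + 0.1) from the C57BL/6 mean in each of the 22 libraries (columns, by group, replicate and sex) for the 28 members called at 0.05 in Winnie-Prolapse against C57BL/6 (rows, ordered by fold change). The red block of the upper rows covers all 7 Winnie-Prolapse libraries and reaches into Winnie replicates 1 and 2, and Il33 is blue in most Winnie libraries and red in most Winnie-Prolapse libraries.

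The Winnie mice differed widely among themselves. Of the 16 members upregulated in Winnie-Prolapse, the number above every C57BL/6 library was 15 in each of Winnie replicates 1 and 2, 11 in replicate 3, 5 in replicate 4, 1 in replicate 5, 12 in replicate 6 and 7 in replicate 7. Winnie replicate 2, a male, was the highest of its group for 11 of the 16, and replicate 5, a female, the lowest for 11. In Winnie replicate 2, 14 of the 16 were also at or above the lowest Winnie-Prolapse library. Winnie-Prolapse replicate 4 was the highest of its group for 11 of the 16. These members were chosen on the Winnie-Prolapse libraries, where all 16 are high by that choice.

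**Figure D4:**
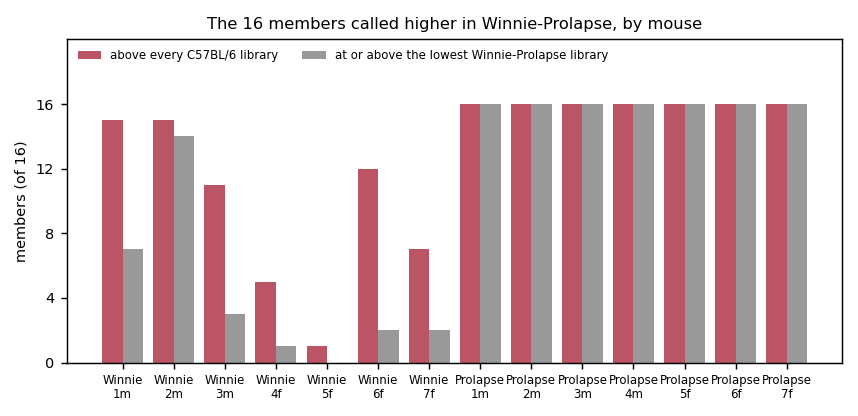
Number of the 16 members upregulated in Winnie-Prolapse that stand above every C57BL/6 library (red) and at or above the lowest Winnie-Prolapse library (grey) in each Winnie and Winnie-Prolapse mouse (m, male; f, female). Winnie mice range from 1 to 15 for the red bars, and the Winnie-Prolapse bars are at 16 because those libraries chose the members.

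With 1 sex at a time, the comparisons of Winnie mice gave different counts. In Winnie against C57BL/6, 17 of 42 tested members were higher and 6 lower at 0.05 in males, beside 11.8% and 10.7% of all genes in the same fit. In females 0 of 37 were higher and 0 lower, beside 0.00579% and 0% of all genes. In Winnie-Prolapse against Winnie, 0 of 51 were higher and 0 lower in males, beside 0% and 0%, and 22 of 52 were higher and 5 lower in females, beside 8.09% and 6.25% of all genes. The difference between the sexes was tested as an interaction over all 22 libraries with edgeR, and 0 of 55 members passed an adjusted p of 0.05 for Winnie against C57BL/6 and 0 of 55 for Winnie-Prolapse against C57BL/6, beside 0% and 0% of all 18911 genes. For Winnie-Prolapse against Winnie, a test added after seeing the data, 0 of 55 passed, beside 0.0106% of all genes. At an unadjusted p under 0.05 there were 15, 7 and 19 members, beside 2476, 945 and 2933 genes in all, and limma-voom called 0, 0 and 0 members. Without Winnie-Prolapse replicate 4, 1 member, Il18, passed for Winnie against C57BL/6 (adjusted p 0.0361), beside 0.08% of all genes, and 8 passed for Winnie-Prolapse against Winnie, beside 3.86%. These 8 were Il17re, Il18, Il18rap, Il1a, Il1r2, Il33, Il4ra and Il6.

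The smallest interaction p in Winnie against C57BL/6 was that of Il18. In males Il18 ranged from 137 to 184 CPM in C57BL/6 and from 30.1 to 51.2 CPM in Winnie, and in females from 62.8 to 138 CPM and from 70.8 to 124 CPM. The male groups did not overlap and the female groups did. The change in males minus that in females was -2.05 on the log2 scale, with an unadjusted p of 7.23e-05 and an adjusted p of 0.146 (edgeR). For Il33 in Winnie-Prolapse against C57BL/6 the same difference was -1.85, with an adjusted p of 0.911, and the Winnie-Prolapse females ranged from 17.2 to 26.5 CPM and the males from 5.45 to 12.1 CPM.

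Ligands of the IL-36 group, which signal in skin and other barrier epithelia, were near the counting limit in nearly all C57BL/6 and Winnie libraries and split the Winnie-Prolapse mice. Il1f9, which encodes IL-36 gamma, was at 0.977, 5.37, 0.0303, 24.8, 11.3, 4.67 and 4.45 CPM in Winnie-Prolapse replicates 1 to 7. Il1f6 (IL-36 alpha) was at 0.0888, 1.78, 0.0303, 4.2, 0.621, 0.685 and 0.368 CPM in the same mice. Il1f8 (IL-36 beta) and Il1f5, the IL-36 receptor antagonist, were at 0 in replicates 1 and 3 and present in the other 5. All 4 genes were therefore higher in the same 5 mice than in the other 2. Outside Winnie-Prolapse, Il1f6 reached at most 0.0961 CPM, Il1f8 was found in C57BL/6 replicate 7 alone at 0.398 CPM, and Winnie replicate 2 stood apart with 1.57 CPM of Il1f9.

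Against Winnie, Il1f9 was higher by 4.88 ± 1.21 on the log2 scale (edgeR adjusted p 0.0275, and 0.0599 without Winnie replicate 4). Il1f5, with no count in the other groups, had a mean at least 33.8-fold higher than a floor of 3 counts per C57BL/6 library and at least 37.0-fold higher than that of Winnie. Without Winnie-Prolapse replicate 4 these bounds were 18.8-fold and 20.6-fold. Genes of squamous epithelium were high in the same 5 mice, but in another order. The summed level of 8 such genes was 4.79, 1718, 2.33, 922, 176, 240 and 3325 CPM in Winnie-Prolapse replicates 1 to 7, between 1.95 and 2.93 CPM in C57BL/6, and at 52.0 CPM in Winnie replicate 2 against 3.62 CPM or less in the other Winnie libraries. In C57BL/6, 4 of the 8 (Dsg3, Krt6a, Krt6b and Sprr1b) never exceeded 3 counts. Replicate 7, with the highest squamous sum, had the lowest level of each of the 4 IL-36 genes among the 5, and replicate 4, at 922 CPM, had the highest of each. The part of squamous tissue in the IL-36 levels was not tested.

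**Figure D5:**
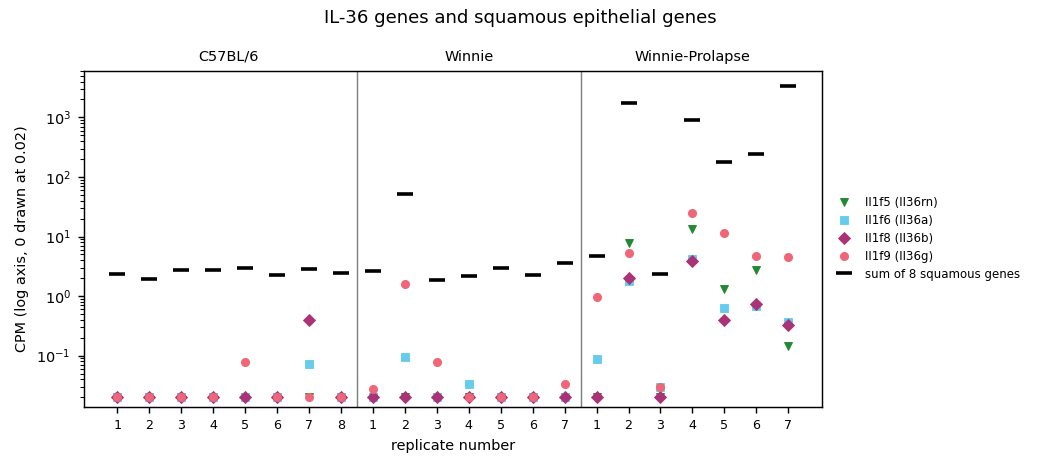
CPM of the 4 IL-36 genes and the summed CPM of 8 squamous epithelial genes (black bars) in each library on a log axis, with 0 drawn at 0.02. In Winnie-Prolapse replicates 1 and 3 the squamous sum is 4.79 and 2.33 CPM and Il1f5 and Il1f8 are at 0, and in the other 5 all of these are higher.

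Markers of other cells moved with the group as well. In Winnie-Prolapse against C57BL/6, 5 of 6 tested neutrophil genes, 6 of 7 macrophage genes and 7 of 9 T cell genes were higher at 0.001, and 5 of 5 smooth muscle genes and 7 of 7 enteric neuron genes were lower, beside 9.84% and 8.47% of all genes. At the same limit 2 of 4 mast cell genes and 2 of 5 plasma and B cell genes were higher, and 1 of 4 type 3 lymphoid genes, 1 of 5 goblet cell genes and 2 of 7 colonocyte genes were lower. At 0.05, 3 of 5 tuft cell genes and 3 of 5 goblet cell genes were lower, beside 17.7% of all genes. So were 5 of 7 colonocyte genes and 2 of 4 fat genes. In the other direction, 1 tuft cell gene and 1 colonocyte gene were higher, beside 16.7% of all genes. S100a8, an abundant neutrophil gene, was at 0.0342, 0.11 and 0.617 CPM in C57BL/6, 0.0984, 2.39 and 36.2 CPM in Winnie and 21.4, 78.9 and 356 CPM in Winnie-Prolapse. Of the 9 neutrophil genes listed, 6 were tested, and they did not all change alike. In the same order of groups, Ly6g had medians of 286, 391 and 486 CPM. Camp stayed near the counting limit, with medians of 0.0659, 0.0320 and 0.0368 CPM. The summed level of the 9 T cell genes was 5.81, 11.1 and 30.2, then 17.0, 25.6 and 48.3, then 27.5, 39.1 and 68.7 CPM. Colonocyte genes summed to 6473, 8343 and 11685 CPM in C57BL/6 and 1438, 2150 and 6598 CPM in Winnie-Prolapse, while 1 of them, Krt20, had medians of 663 and 1413 CPM. The part of these cell types in the interleukin levels was not tested.

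Genes that act with the interleukins but carry other names were counted from fixed lists. Of 17 tested partner genes, 7 were upregulated and 0 downregulated in Winnie-Prolapse against C57BL/6 at 0.001, beside 9.84% and 8.47% of all genes. They included Osm, which encodes oncostatin M of the IL-6 family, at a log2 fold change of 6.53 ± 0.92, its receptor Osmr at 2.84 ± 0.22, Lif at 2.71 ± 0.25, and Csf2rb, the common beta chain, at 3.10 ± 0.47. Ifng, the cytokine induced by IL-12 and IL-18, was at 0, 0 and 0.0342 CPM in C57BL/6, 0.0338, 0.368 and 2.02 CPM in Winnie and 1.39, 3.16 and 10.2 CPM in Winnie-Prolapse. Every Winnie-Prolapse library stood above every C57BL/6 library for Ifng (edgeR adjusted p 2.55e-07). Being near 0 in C57BL/6, Ifng passed the low-count filter only through its Winnie-Prolapse libraries, and its p-value holds under that selection.

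Of 23 signalling genes, 8 were upregulated and 1 downregulated at the same limit, beside the same shares of all genes. The feedback inhibitors Socs1 and Socs3, which are induced by cytokines through STAT factors, rose by 4.40 ± 0.27 and 3.66 ± 0.29 on the log2 scale (edgeR adjusted p 1.22e-08 and 2.4e-07), and Socs2 fell by 1.23 (SE 0.20). Of 13 transcripts known to be induced in epithelium by IL-22 or IL-17, 9 were upregulated and 0 downregulated at 0.001, beside these shares, among them Lcn2 by 7.96 ± 1.0 and Duoxa2 by 2.63 ± 0.41, while Saa1 and Pigr were not called. This list shares S100a8 and S100a9 with the neutrophil genes.

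The 6 genes left out by their biotype cell included one of the largest changes. Il1b, which encodes IL-1 beta of activated myeloid cells, was at 0.239, 0.746 and 2.12 CPM in C57BL/6, 1.97, 5.94 and 51.4 CPM in Winnie and 25.3, 57.4 and 274 CPM in Winnie-Prolapse. All 7 Winnie-Prolapse libraries stood above all C57BL/6 libraries. Its log2 fold change was 6.93 ± 0.60 in Winnie-Prolapse (edgeR adjusted p 4.83e-07) and 3.77 ± 0.66 in Winnie (adjusted p 0.00245), each against C57BL/6, although an antisense gene, Il1bos, overlaps it. Il10ra, the ligand-binding chain for IL-10, rose by 1.83 ± 0.30 (adjusted p 0.000151) in Winnie-Prolapse. Il1rap, the shared chain of the IL-1 receptors, and Il9r, Il16 and Il34 were not called, with log2 differences from 0.10 to 0.58, although Il16 was without C57BL/6 replicate 5 (adjusted p 0.0246).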

How the data were processed

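The authors extracted RNA from distal colon, prepared stranded poly(A) libraries and sequenced paired ends. Per the labels and the study's methods, reads were processed with RNAsik on GRCm38 and counted with featureCounts, and the processing notes also name STAR and limma. The deposited table holds raw read counts per gene, with no normalization. The annotation release, the strand setting and the handling of shared reads were not given in the sources used here, so overlapping genes and near copies are uncertain. CPM was computed from the deposited counts and the library totals. RPKM used the union of exons of GENCODE M21 (GRCm38), which matched all 75 members by identifier.

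The test was the quasi-likelihood F test of edgeR 4.0.16 under R 4.3.3 ( TMM normalization, filterByExpr, Benjamini-Hochberg adjustment over all genes), with 1 fit per comparison, males and females combined. The limits of 0.001 and 1.5-fold are those of the study, and 0.05 is a second limit. The interaction with sex was fitted over all 22 libraries. Labels give separate mice, and no libraries were duplicates (lowest chi-square per degree of freedom 28.8 between libraries of a group). Alternatives were DESeq2 1.42.0, limma-voom (limma 3.58.1), library size without TMM, the bias-adjusted fit, sex as a covariate, other filters (none, or a minimum of 10 counts per library), 1 sex alone, 1 fit of all groups, another gene length and leaving out each library. Including the 6 genes left out by biotype, and the sex interaction in Winnie-Prolapse against Winnie, were added after seeing the data.

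Members and lists were chosen with earlier results of these data known. Levels per group were given for members called at 0.001 in Winnie against C57BL/6 or Winnie-Prolapse against Winnie, for the 10 largest rises and falls called at 0.001 in Winnie-Prolapse against C57BL/6, for a fixed set of cytokine genes and inhibitors, and for members past 0.05 in Winnie-Prolapse against Winnie; other members were named after their values were seen. Libraries of 24.8 to 36.3 M counts set the precision, and limits cover counting error only. The result of 1 list of induced transcripts is not reported here.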

Additional observations from a re-analysis of the deposited data

Results flagged for a closer look

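Of 131 groups of libraries checked over 46 members and Il1b, 30 held 1 library far above the others of its group. The limit used lets about 1 in 20 groups through by chance where values are normally distributed; CPM values near 0 are not, so the 30 were not compared with that rate. Each value below is the CPM of that library, with the next library of the group after it. The male Winnie replicate 2 stood apart for Il11 (8.94, next 0.655), Il12rb2 (2.15, next 0.88), Il17a (0.577, next 0.201), Il17f (0.417, next 0.193), Il18rap (5.9, next 2.54) and Il1a (2.37, next 1.02). The same library was also high for Il1f9 (1.57, next 0.0771), Il1r2 (5.64, next 2.12), Il1rl1 (49, next 11.2), Il1b (51.4, next 9.08), Il22 (0.16, next 0.055), Il3ra (10.1, next 6.11) and Il6 (1.41, next 0.11). The male Winnie-Prolapse replicate 4 stood apart for Il11 (46.8, next 17.2), Il17ra (47.3, next 29.5) and Il17rd (8.92, next 5.56). The same library was also high for Il18rap (30.1, next 9.35), Il1f6 (4.2, next 1.78), Il1r2 (42.3, next 11.3) and Il6 (19.9, next 5.24). Winnie-Prolapse replicate 6 stood apart for Il22 (0.685, next 0.296) and Il23a (1.93, next 0.859). In C57BL/6, replicate 5 stood apart for Il18rap (0.81, next 0.511), Il1b (2.12, next 1.05), Il2ra (1.66, next 0.786), Il5ra (0.424, next 0.199) and Il7r (4.28, next 2.04). C57BL/6 replicate 7 stood apart for Il17d (8.48, next 2.93), Il1f8 (0.398, next 0) and Il4ra (41, next 24.9). Winnie-Prolapse replicate 6 is the library with mammary gland counts, which lower its CPM values through the library total. Any other part of the mammary tissue in its values was not tested.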

How the results depend on the processing

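Each count of members called under an alternative tool, filter or model, or in 1 sex, is followed in parentheses by a share. This is the share of all genes called the same way in that fit. Counts without 1 library are given as ranges over fits and carry no such share. In Winnie-Prolapse against C57BL/6 the 16 members called higher at 0.001 were 31 with DESeq2 (11.4%), 8 with at least 10 counts in every library (9.44%), 6 in males (1.43%) and 5 in females (1.28%), and ranged from 15 to 20 without 1 library. The 3 called lower were 0 in males (0.339%) and 0 in females (0.177%), and 2 to 4 without 1 library. At 0.05, 22 became 36 with DESeq2 (16.2%), 36 without a filter (13.5%) and 14 with at least 10 counts in every library (15.3%), and 20 to 25 without 1 library, while 6 became 3 in males (11.2%) and 4 to 7 without 1 library. In Winnie against C57BL/6 the 0 higher at 0.001 became 8 with DESeq2 (3.46%), 1 without a filter (0.219%), 1 with all 3 groups in 1 fit (0.979%) and 1 in males (0.637%), and 0 to 2 without 1 library, the 2 without Winnie replicate 5. The 0 lower became 1 in males (0.102%). At 0.05, 9 higher became 16 with DESeq2 (7.36%), 17 without a filter (4.95%), 14 with all groups in 1 fit (7.69%), 17 in males (11.8%) and 0 in females (0.00579%), and 8 to 11 without 1 library. The 3 lower became 6 in males (10.7%) and 0 in females (0%), and ranged from 1 without Winnie replicate 1 to 5 without C57BL/6 replicate 7 or Winnie replicate 5. In Winnie-Prolapse against Winnie the 0 higher at 0.001 became 11 with DESeq2 (2.19%), 2 with all groups in 1 fit (0.18%) and 3 in females (0.305%). At 0.05, 11 higher became 23 with DESeq2 (7.41%), 7 with at least 10 counts in every library (3.63%), 0 in males (0%) and 22 in females (8.09%), and 5 to 18 without 1 library. The 1 lower became 0 without TMM (2.37%), with limma-voom (2.15%), with sex as a covariate (1.51%) and in males (0%), 5 in females (6.25%), and 0 to 2 without 1 library. Members with a sex interaction numbered 0 to 1 in Winnie against C57BL/6 and 0 to 8 in Winnie-Prolapse against Winnie without 1 library. With the 6 genes left out by biotype, the 16 and 22 became 18 and 24, beside the unchanged 9.84% and 16.7% of all genes.

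Of 2126 alternatives for the single genes the text tests, 1899 kept direction and side of the limit, 172 lost the call, 38 gained it and 17 changed sign. Sign changes in Winnie-Prolapse against C57BL/6 were those of Il13ra2 in males (-0.00578), Il7 in males (0.17), Il9r in females (-0.0249), Il23a with limma-voom (-0.17) and without Winnie-Prolapse replicate 6 (-0.19, and up to 0.81 without Winnie-Prolapse replicate 3), Il1rap with limma-voom (-0.0387), in males (-0.0773) and without Winnie-Prolapse replicate 4 or 6 (-0.13 to 0.23 without 1 library), and Il6st without TMM (-0.0419), in females (-0.0273) and without C57BL/6 replicate 2 or Winnie-Prolapse replicate 4 or 6 (-0.0616 to 0.0958 without 1 library). The others were Il18 in Winnie against C57BL/6 in females (0.00810) and, in Winnie-Prolapse against Winnie in males, Il18 (0.35) and Il22ra2 (0.0479). Fits of 1 sex hold fewer samples, and the cause of the other changes was not tested. No paired analysis was possible because the labels give no replicate numbers; those used here only name different mice within a group. At this depth 10 members never exceeded 3 counts in a library.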
